A study of Mus musculus with 6 samples.

Results

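Adipocytes that descend from transplanted bone marrow were compared with conventional white and brown adipocytes, considered jointly, by RNA hybridisation to oligonucleotide arrays. A gene was kept as a member when its values on both marrow-derived arrays lay outside the range of its values on the 4 conventional arrays. Of 16965 autosomal genes, 8232 (48.5%) met that rule, of which 3583 (21.1%) were above the range on both marrow-derived arrays, 4033 (23.8%) were below it on both, and 616 (3.63%) were above it on 1 array and below it on the other. X- and Y-linked genes were left out by the rule, and a gene with several probe sets was represented by the one highest on average across the arrays. The rule itself uses the measured values, so membership is a description and carries no test.

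There were 3 groups of 2 arrays. The marrow-derived group came from the floating adipocyte fraction of gonadal fat of mice transplanted with bone marrow, and its cells were sorted by flow cytometry for the label of the donor, which was GFP (green fluorescent protein) for replicate 1 and LacZ (beta-galactosidase) for replicate 2. The white group was adipocytes of gonadal fat and the brown group adipocytes of intrascapular fat, and the labels give neither a donor marker nor a transplant for them. Strain, sex, age and the conditioning of the transplant recipients are not given in the sources used here. In every group about 5000 cells were collected per sort and at least 6 sorts were pooled, after which RNA was amplified, so each array is an average over many sorts. The 2 marrow-derived arrays therefore differ in donor line as well as in replicate. The titles call the 2 arrays of each group biological replicates, but whether they come from different animals is not stated. A p-value then covers only how far these arrays spread. For the marrow-derived pair that spread includes the donor line, and for white and brown it may be technical.

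Adipocytes store triglyceride in a lipid droplet and release it as fatty acids and glycerol. White adipocytes hold a single large droplet and secrete hormones such as leptin, and brown adipocytes hold many mitochondria and dissipate energy as heat through uncoupling protein 1. Both types break down branched-chain amino acids in mitochondria and oxidise or re-esterify fatty acids. Fat also holds endothelial cells, pericytes, fibroblast-like progenitors, mesothelium and macrophages, any of which may float with adipocytes during flotation. In RNA from many cells, fewer cells of a type and less RNA per cell cannot be told apart.

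Expression is given on the log2 scale, per probe set, as deposited, and a difference is the marrow-derived mean minus the average of the white and brown means. Array medians ran from 5.46 to 5.72, and the number of arrays limits the precision. Limma, fitted over all 16965 genes with Benjamini-Hochberg adjustment, called 4977 genes (29.3%) at an adjusted p of 0.05, of which 2386 (14.1%) rose and 2591 (15.3%) fell. Genes that were called and also outside the range numbered 2172 above (12.8%) and 2394 below (14.1%). The shares of all genes, 14.1% that rose and 15.3% that fell, are those to set beside every list count below. The fit and the range rule use the same values, so neither supports the other. In what follows a gene "rose" or "fell" where limma called it, the figure after ± is limma's standard error (SE, n = 2 arrays per group), and adjusted p is limma's over all genes. Fewer genes were called with any single array left out, most of all without a brown array. Leaving out an array also leaves its group without a replicate and the fit with less information on the spread. A call lost in this way therefore does not by itself show that a gene's values are unstable, here and below.

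The labelled cell type was checked against general adipocyte genes. Of 13 measured, 8 fell, 0 rose and 10 lay below the range, with a median difference of -1.41. Fabp4, Pparg and Adipoq, given here, were among those that did not pass. Fabp4, the fatty acid binding protein of fat cells, stood at 13.50 (GFP array) and 13.40 (LacZ array), against 13.42 and 13.53 in white and 13.72 and 13.51 in brown. Pparg, the master regulator of fat cell differentiation, stood at 11.56 and 11.81 in marrow-derived arrays, 11.63 and 12.01 in white and 11.88 and 11.93 in brown. Fabp4 lies near the highest value on any array (13.97), so its probe set may show little of a difference. Both genes overlapped between the groups and neither passed the test (Fabp4 -0.09 ± 0.14, adjusted p = 0.665; Pparg -0.18 ± 0.18, adjusted p = 0.499). Adipoq, which encodes adiponectin, was below the range at 12.70 and 11.86, against 13.22 and 13.24 in white and 13.01 and 13.15 in brown, but did not pass (-0.87 ± 0.26, adjusted p = 0.0567). Fabp4 is one gene whose sign turned with another scaling (0.04 after quantile normalization was applied again).

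Leukocyte genes differed between the 2 marrow-derived arrays. The mean log2 value over 28 macrophage and monocyte markers was 10.14 (GFP array) and 7.72 (LacZ array), against 10.59 and 9.13 in white and 8.05 and 7.28 in brown. The summed level of the list, on the log2 scale, ran from 14.24 to 16.39 in marrow-derived, 15.22 to 16.51 in white and 13.73 to 14.44 in brown arrays, and these values have neither a zero nor a detection call. For Ptprc, the common leukocyte antigen CD45, the values were 10.87 and 7.62 in marrow-derived, 10.89 and 8.80 in white and 8.36 and 7.32 in brown arrays. For Adgre1, a surface antigen of macrophages, they were 11.79 and 8.48, 11.70 and 9.58, and 8.81 and 7.26 in the same order. Both genes lay inside the range, and the groups overlapped. The differences of Ptprc (0.40 ± 1.07), Adgre1 (0.80 ± 1.12), Csf1r, the receptor for macrophage growth factor (0.84 ± 0.69), and Cd68, a macrophage lysosomal protein (0.28 ± 0.87), did not pass, with adjusted p = 0.807, 0.633, 0.411 and 0.835. Each of the 4 turned negative without the GFP array, to -1.22, -0.85, -0.21 and -0.99, and without white replicate 2 Ptprc stood at -0.12 and Cd68 at -0.16.

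Among members with both arrays on the same side, the median size of the difference was 0.89 log2 units above the range and 0.84 below it. A difference of more than 2 was seen in 563 genes above and 547 below, and of more than 4 in 10 above and 38 below. The gap is the distance from the nearer marrow-derived array to the nearest of the 4 conventional arrays, and it exceeded 2 in 70 genes above and 119 below. Many members sat near the threshold of the rule. On the higher side Wiz and H2az2 cleared it by 0.0001, and Lcn11 and Lysmd4 tied with a conventional array and stayed out. On the lower side Rbm46os cleared it by 0.0001 and Kcnip4 by 0.0006, and Fer1l4 and Tdrd1 stayed out by a tie. Of the 3583 genes above the range, 312 had all 4 conventional values under the lower quartile of all values (4.12). Of the 4033 genes below the range, 825 had both marrow-derived values under that quartile. In all 16965 genes the same 2 counts were 3421 and 3876. Such low values were thus no more frequent among these members than among all genes.

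The LacZ array was often the more extreme of the pair above the range, since the GFP value was the higher in 31.7% of those genes, against 52.0% of the genes below it and 40.6% of all genes. The 616 genes split by the range had a median standard deviation of 0.52 between the marrow-derived arrays, against 0.17 and 0.15 for those above and below. For all genes it was 0.20. A wider spread in the split genes follows from the rule, which puts their 2 marrow-derived arrays on opposite sides of the range. The widest split was in S100a9, a calcium-binding protein of neutrophils and monocytes, at 9.98 (GFP array) and 4.85 (LacZ array), with the conventional arrays between 6.98 and 7.73. Sema4a, a semaphorin of immune cells, stood at 10.86 and 6.88 around a conventional range of 8.32 to 9.59. Cabyr (7.17 and 4.24) and Ralgps2 (7.82 and 4.80) followed. In these 4 genes the GFP array was the higher, whereas it was the higher in 204 (33.1%) of all split genes.

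Other probe sets of the same genes gave a partial check. For genes above the range, 48.2% of 4230 other probe sets also lay above it, 4.09% lay below and 42.6% lay inside. For genes below the range, 53.1% of 3662 other probe sets also lay below it, 4.51% above and 39.0% inside. Of 71 members named for their gap or from a list that had other probe sets, 42 had all of them on the same side. In 14 of the 71 no other probe set lay on the same side, and in 0 did any lie on the opposite side. These 14 were Arntl, Bub1, Col1a2, Dld, Dll4, Erg, Fcer2a, Foxf1, Hoxa10, Hspb1, Kit, Piezo2, Psma1 and Top2a. Probe sets can target other transcript ends or fail to detect the gene, so an inside value is no measurement of absence.

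The largest gaps above the range were in developmental transcription factors and membrane proteins. Hoxd10, a posterior homeobox gene, stood at 8.15 and 8.97 on the GFP and LacZ arrays, against 2.42 and 2.38 in white and 3.37 and 3.71 in brown, a difference of 5.59 or 48.2-fold. Piezo2, a mechanically gated cation channel, stood at 10.36 and 10.72 against 5.92 and 5.04 in white and 5.34 and 5.31 in brown (35.2-fold). Clca2, a regulator of calcium-activated chloride channels, stood at 9.18 and 9.83 against 5.13 and 3.29 in white and 3.92 and 4.05 in brown (42.4-fold). In these genes the conventional values lie far below both marrow-derived ones, and those of Hoxd10 lie under the lower quartile of all values, as do all 4 conventional values of Hoxa10, Hoxc10 and Esm1. Hoxa10 (gap 3.84) and Hoxc10 (3.29), again posterior homeobox genes, came next with Esm1, a proteoglycan secreted by endothelial cells, at 6.72 and 8.02 against 2.27 to 3.51 in the conventional arrays. Foxf1, a forkhead factor of mesoderm and endothelium, stood at 7.29 and 9.75 against 3.31 to 4.20. Kcne4, a potassium channel subunit, Sox11, a transcription factor of embryonic tissue, and Gcgr, the glucagon receptor, completed the 10, with gaps of 3.08, 3.03 and 3.01. All 5 other probe sets of Sox11 also lay above the range, whereas the single other probe sets of Piezo2, Hoxa10 and Foxf1 did not.

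The largest gaps below the range were in signalling, trafficking and metabolic genes. Grb14, an adaptor that binds and inhibits the insulin receptor, stood at 5.29 and 5.98 in marrow-derived arrays, against 10.89 and 10.76 in white and 11.16 and 10.93 in brown (39.5-fold lower). Mal2, a membrane trafficking protein, stood at 3.18 and 2.34 against 8.21 and 7.95 in white and 8.37 and 8.86 in brown (48.0-fold lower). Bcat1, the cytosolic aminotransferase of branched-chain amino acids, stood at 2.67 and 3.69 against 10.82 and 9.65 in white and 8.21 and 7.65 in brown (59.8-fold lower). The marrow-derived values of Mal2, Bcat1, Btc, St6galnac5 and Trim67 lie under the lower quartile of all values. With no detection call, the size of a fold against values that low, here and for Hoxd10, is uncertain, and the other probe sets of Bcat1 differed by -1.14 and -1.90. Btc, the growth factor betacellulin, stood at 3.91 and 3.61 against 8.87 and 8.90 in white and 8.46 and 7.60 in brown. Poln, a DNA polymerase, and Pnldc1, an exonuclease that trims small RNAs, had gaps of 3.68 and 3.56. The sialyltransferase gene St6galnac5 (3.55), Smtnl2 (3.55), the apoptosis repressor Nol3 (3.50) and Trim67, a neuronal member of the tripartite motif family (3.21), completed the 10. Where these 10 genes had other probe sets (Grb14, Bcat1, Btc, St6galnac5, Smtnl2 and Nol3), all of those also lay below the range.

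**Figure D1:**
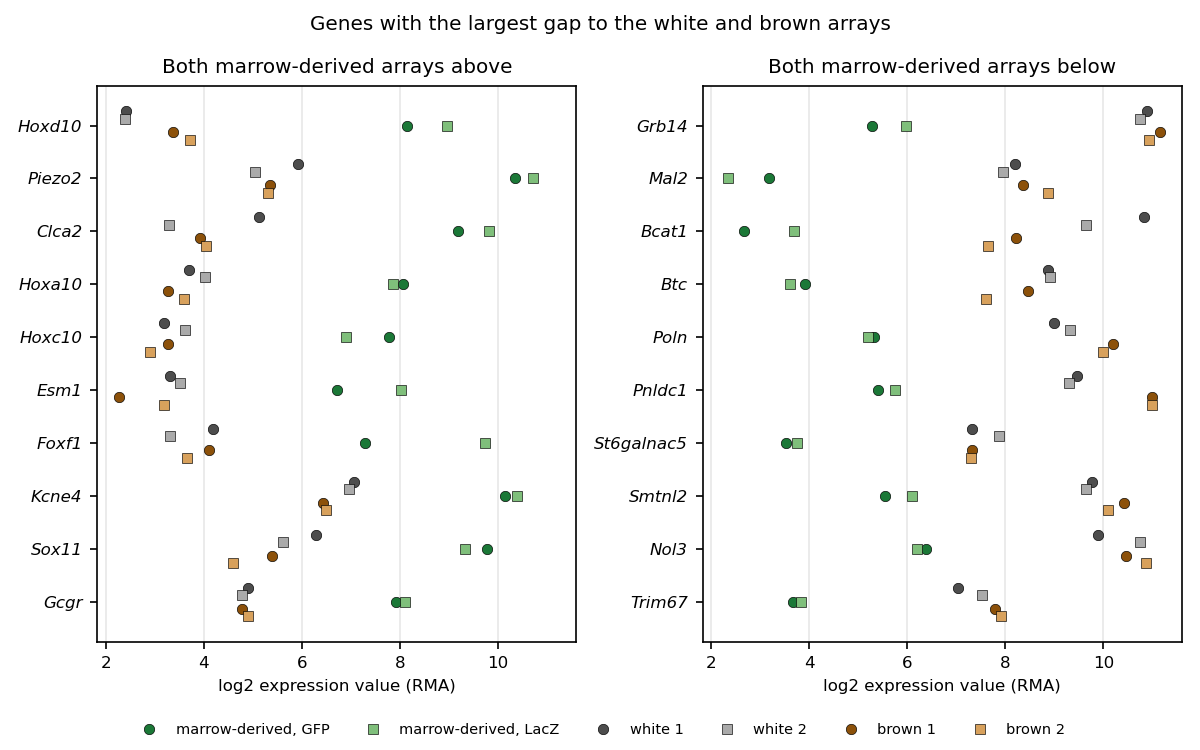
Log2 expression values of the 10 genes with the largest gap above (left) and below (right) the range of the conventional arrays, 1 symbol per array, with white and brown symbols moved slightly up and down so that they can be seen. Hoxd10 stands at 8.15 and 8.97 on the marrow-derived arrays against at most 3.71 on the others, and Grb14 at 5.29 and 5.98 against at least 10.76.

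Every measured gene of branched-chain amino acid breakdown fell. Of 21 measured genes 21 fell and 21 were below the range, with a median difference of -2.12, against -0.03 for all genes tested, of which 15.3% fell. Bcat1, the cytosolic form of the enzyme of the first step, differed by -5.90 ± 0.45 (adjusted p = 0.00299). The branched-chain ketoacid dehydrogenase, which commits the carbon to oxidation, was affected in each of its parts. Its E1 alpha subunit gene Bckdha stood at 6.72 and 6.79 in marrow-derived, 9.28 and 9.67 in white and 11.06 and 10.94 in brown arrays (-3.48 ± 0.17, adjusted p = 0.00243). Its E1 beta subunit gene Bckdhb stood at 8.67 and 8.28, 10.93 and 11.31, and 11.73 and 11.62 (-2.93 ± 0.20, adjusted p = 0.00276), and the E2 gene Dbt fell by 2.62. In both subunits the marrow-derived arrays lie lowest and the brown arrays highest. Further down, Mccc2 of methylcrotonyl-CoA carboxylase fell by 2.73, Ivd, isovaleryl-CoA dehydrogenase, by 2.36, and Pccb of propionyl-CoA carboxylase stood at 9.01 and 8.75 against 10.98 to 12.35 (-2.74 ± 0.17, adjusted p = 0.00268). The smallest difference was in Ppm1k, the phosphatase that activates the dehydrogenase (-0.74). With any single array left out, between 19 and 21 of the 21 genes fell.

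All 18 measured genes of the tricarboxylic acid cycle and the pyruvate dehydrogenase complex fell as well, with a median of -1.42. Idh3a, the catalytic subunit of isocitrate dehydrogenase, stood at 9.69 and 9.49 against 11.43 and 11.49 in white and 12.72 and 12.53 in brown (-2.45 ± 0.15, adjusted p = 0.00253). Of the pyruvate dehydrogenase complex, Dlat fell by 2.40, Pdhx by 2.35 and Dld, which the branched-chain complex shares, by 2.12. Each of these was lowest in marrow-derived, intermediate in white and highest in brown arrays. Between 12 and 18 of the 18 genes fell with any single array left out.

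Most genes of mitochondrial fatty acid oxidation and of peroxisomes fell. Of 18 mitochondrial oxidation genes 16 fell and 0 rose, with a median of -1.61. Cpt2, the inner membrane enzyme of the carnitine shuttle, stood at 10.14 and 9.20 against 11.49 and 11.59 in white and 12.90 and 12.81 in brown (-2.53 ± 0.28, adjusted p = 0.00522). Hadha, the trifunctional protein subunit (-2.27 ± 0.16), Acadm, medium-chain acyl-CoA dehydrogenase (-2.19 ± 0.21), and Echs1, enoyl-CoA hydratase (-2.09 ± 0.21), also fell. The exceptions were Eci2, an enoyl-CoA isomerase (-0.50 ± 0.16, adjusted p = 0.0653), and the liver isoform of the outer carnitine palmitoyltransferase, Cpt1a, which had a positive difference (0.62 ± 0.20, adjusted p = 0.0706). Of 23 peroxisome genes 20 fell and 0 rose, with a median of -1.23. They included Acaa1b, a peroxisomal thiolase (-3.55 ± 0.44), Abcd2, a transporter of very long-chain acyl-CoA (-3.32 ± 0.48), Ehhadh, the peroxisomal bifunctional enzyme (-2.82 ± 0.20), and Gnpat, which starts ether lipid synthesis (-2.68 ± 0.16). Ehhadh stood at 7.15 and 6.64 against 9.38 to 10.10 in the conventional arrays. Without brown replicate 2, 13 peroxisome genes fell.

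The mitochondrial translation and respiration genes differed less per gene but in most members. Of 38 mitochondrial ribosomal proteins 33 fell and 0 rose, with a median of -0.94, led by Mrpl50 (-1.96 ± 0.18), Mrps22 (-1.76 ± 0.18), Mrpl34 (-1.76 ± 0.19) and Mrpl16 (-1.49 ± 0.13). Mrps22, of the small subunit, stood at 8.93 and 8.51 against 10.26 and 10.36 in white and 10.57 and 10.74 in brown. Of 47 respiratory chain and ATP synthase genes 35 fell and 1 rose, with a median of -0.72. The complex I subunit Ndufa10 (-1.83 ± 0.15) and the complex III subunits Uqcrfs1 (-1.81 ± 0.18), Uqcrq (-1.80 ± 0.20) and Uqcrc1 (-1.52 ± 0.14) had the largest differences in the list. Ndufa10 stood at 10.44 and 10.28 against 11.47 and 11.73 in white and 12.81 and 12.76 in brown. The gene of the list that rose was Atp5g1, a c subunit of ATP synthase (0.72 ± 0.16), named after its value was seen. Its call was lost without any 1 of the 6 arrays. Cox4i2, a cytochrome oxidase subunit gene not on the list and also named after its value was seen, rose and lay above the range. These counts moved with single arrays: mitochondrial ribosomal genes that fell numbered 20 without brown replicate 1 and 15 without brown replicate 2. For the respiratory chain they numbered 18 without the LacZ array, 23 without white replicate 2, 16 without brown replicate 1 and 14 without brown replicate 2.

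Regulators of mitochondrial gene expression were mixed. Of 18 measured, 9 fell and 2 rose, where 15.3% and 14.1% of all genes did, with a median of -0.60. Esrrg, an orphan nuclear receptor that activates oxidative genes, stood at 3.33 and 3.55 against 7.43 and 6.59 in white and 10.15 and 10.11 in brown (-5.13 ± 0.26, adjusted p = 0.00243). Ppargc1a, the coactivator PGC-1 alpha, stood at 4.73 and 3.40 against 7.18 to 9.40 in the conventional arrays (-4.22 ± 0.40, adjusted p = 0.0041). Sirt3, the mitochondrial deacetylase, fell by 2.32 and Ppargc1b, a relative of Ppargc1a, by 2.16. The means of all 4 were lowest in the marrow-derived arrays and highest in brown. The 2 that rose, named after their values were seen, were Gabpb1, a subunit of the ETS-family factor NRF-2 (1.38 ± 0.22), and Pprc1, another member of the coactivator family (1.07 ± 0.16); the call of Gabpb1 was lost without brown replicate 2 (adjusted p = 0.0518).

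Promoters of the mitochondrial and peroxisomal genes can be set beside these values because several of those regulators act through short motifs. RefSeq sequences (GRCm38.p6) of 250 bases before to 50 after the start were matched by gene ID for 13488 of the 16965 genes, and both strands were searched. The ETS-type motif CCGGAAGT occurred in 6.38% of all promoters, in 8.63% of 1934 promoters of genes that fell and were below the range, in 5.58% of 1719 of genes that rose and were above it, and in 10.1% of 138 of the mitochondrial, peroxisomal and branched-chain lists above. The core of the NRF1 motif, GCATGCGC, occurred in 4.34%, 6.05%, 3.78% and 8.70% of the same sets, the ERR motif TCAAGGTCA in 0.363%, 0.517%, 0.291% and 1.45%, and TATAAA in 9.50%, 7.70%, 7.97% and 5.80%. Matches of different motifs overlapped in 0 windows. These shares are descriptions with no test, a match is not a shown binding site, and in the 138 the counts behind them are 14, 12, 2 and 8 promoters. The 4 windows below, each of 150 bases ending at the base before the start, are shown because they place a match, in capitals, in front of genes that fell: Cpt2 for fat oxidation, Pex11a for peroxisome division, Mrps22 for mitochondrial translation and Etfdh for electron transfer from fat oxidation.
Cpt2, chr4:107923590-107923739, minus strand: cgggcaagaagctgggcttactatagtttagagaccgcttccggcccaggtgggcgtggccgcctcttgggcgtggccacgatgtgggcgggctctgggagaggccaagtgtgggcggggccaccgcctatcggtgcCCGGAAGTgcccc
Pex11a, chr7:79743132-79743281, minus strand: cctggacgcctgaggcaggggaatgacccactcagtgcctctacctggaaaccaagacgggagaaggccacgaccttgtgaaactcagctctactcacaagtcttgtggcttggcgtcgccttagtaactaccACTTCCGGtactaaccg
Mrps22, chr9:98601680-98601829, minus strand: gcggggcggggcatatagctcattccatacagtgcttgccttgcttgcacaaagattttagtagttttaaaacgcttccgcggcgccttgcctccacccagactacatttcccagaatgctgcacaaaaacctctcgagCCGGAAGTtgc
Etfdh, chr3:79628768-79628917, minus strand: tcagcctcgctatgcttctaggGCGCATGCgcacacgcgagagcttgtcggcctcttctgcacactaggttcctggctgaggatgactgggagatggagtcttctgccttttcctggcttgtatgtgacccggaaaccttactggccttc
The ETS-type match begins 13 bases before the start in Cpt2, 17 in Pex11a, where it reads ACTTCCGG on the other strand, and 11 in Mrps22, and in Etfdh the NRF1 match in capitals, GCGCATGC, begins 128 bases before the start and overlaps a match on the printed strand, so the stretch matches on both strands. Pex11a stood at 9.57 and 7.85 against 10.41 to 11.26 in the conventional arrays (-2.26 ± 0.50, adjusted p = 0.0258), a call lost without white replicate 2 or either brown array (adjusted p up to 0.0904) and -1.39 without the LacZ array. Etfdh stood at 10.72 and 10.61 against 11.42 to 12.88 (-1.48 ± 0.14, adjusted p = 0.00397). The 4 genes were chosen for their matches after the values were seen.

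**Figure D2:**
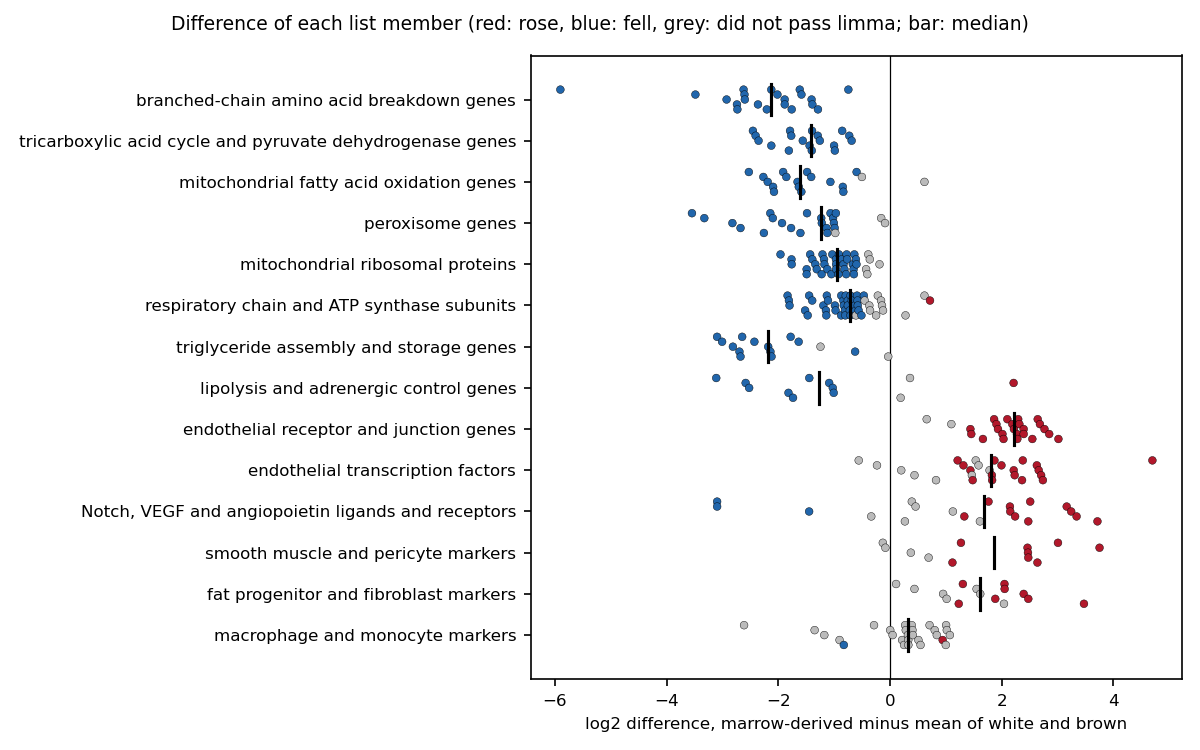
Log2 difference between marrow-derived adipocytes and the mean of white and brown for each measured member of 14 gene lists, with 1 point per gene and the list's median as a bar. The 21 branched-chain genes lie between -5.90 and -0.74, and the endothelial receptor and junction genes between 0.66 and 3.02.

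Genes that build, store and mobilise triglyceride were lower in marrow-derived adipocytes. Of 15 triglyceride assembly and storage genes 13 fell and 0 rose, with a median of -2.18. Gpd1, which makes the glycerol phosphate backbone, stood at 10.82 and 9.05 against 12.61 and 12.63 in white and 13.47 and 13.42 in brown (-3.10 ± 0.49, adjusted p = 0.0106). The acyltransferase genes Mogat1 (-3.01 ± 0.52), Agpat2 (-2.81 ± 0.65) and Agpat3 (-2.70 ± 0.31) fell too. In each of the 4 the LacZ array was lower than the GFP array. The calls of Gpd1 and Mogat1 were lost without brown replicate 2 (adjusted p = 0.0515 and 0.0559), and that of Agpat2 without any 1 white or brown array (adjusted p up to 0.103), with a difference of -1.64 without the LacZ array. The list had 8 genes that fell without white replicate 2, 8 without brown replicate 1 and 4 without brown replicate 2.

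Of 12 genes of lipolysis and its control 9 fell and 1 rose, where 15.3% and 14.1% of all genes did. The median was -1.27. Hcar2, the niacin receptor that restrains lipolysis, stood at 5.32 and 4.12 against 7.29 to 8.09 (-3.11 ± 0.41, adjusted p = 0.00722). G0s2, the inhibitor of adipose triglyceride lipase, stood at 9.77 and 8.88 against 11.59 to 12.34 (-2.58 ± 0.29, adjusted p = 0.00522). Both genes restrain lipolysis, as does Pde3b, the phosphodiesterase through which insulin acts (-2.52 ± 0.63). Npr1, the receptor for atrial natriuretic peptide, rose by 2.22 ± 0.43, at 7.63 and 7.94 against 4.92 and 3.79 in white and 7.30 and 6.27 in brown. The call of Pde3b was lost without any 1 white or brown array (adjusted p up to 0.115), with a difference of -1.36 without the LacZ array, and that of Npr1 without the LacZ array or brown replicate 2 (adjusted p up to 0.0725).

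Of 17 fatty acid synthesis genes 7 fell and 1 rose, where 15.3% and 14.1% of all genes did, with a median of -1.32. Mlxipl, the carbohydrate-responsive transcription factor, stood at 7.75 and 5.98 against 9.73 and 10.44 in white and 11.52 and 11.58 in brown (-3.95 ± 0.52, adjusted p = 0.00732). Slc25a1, the citrate carrier, fell by 3.02, Pcx, pyruvate carboxylase, by 2.62 and Scd2, a desaturase, by 1.32. The desaturase gene Fads2 rose (1.08 ± 0.19); it was named after its value was seen, and its call was lost without the GFP array (adjusted p = 0.0531). The count moved with single arrays, to 12 genes that fell without the GFP array and to 3 without white replicate 2 or either brown array, and the median was -0.75 without the LacZ array. The call of Pcx was lost without any 1 white or brown array (adjusted p up to 0.123), and its difference was -1.39 without the LacZ array.

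Among 13 adipocyte identity genes 8 fell and 0 rose, with a median of -1.41, and those that did not pass included Fabp4, Pparg and Adipoq. Slc2a4, the insulin-responsive glucose transporter GLUT4, stood at 9.78 and 9.32 against 11.70 and 11.91 in white and 12.07 and 12.34 in brown (-2.45 ± 0.20, adjusted p = 0.00319). Rbp4, the retinol carrier, and Plin4, a lipid droplet protein, both differed by -2.18. The calls of Plin4 and Rbp4 were lost without white replicate 2 or either brown array (adjusted p up to 0.0848 and 0.112), that of Rbp4 also without white replicate 1 or the LacZ array, and without the LacZ array the differences were -1.35 and -1.30. The list counted 5 that fell without white replicate 1 or the LacZ array, 3 without white replicate 2 or brown replicate 1 and 2 without brown replicate 2, and its median without the LacZ array was -0.74. Of 10 secreted adipokines 6 fell and 0 rose, with a median of -1.66. Lep, leptin, stood at 10.07 and 10.55 against 12.99 and 12.97 in white and 11.83 and 11.86 in brown (-2.10 ± 0.18, adjusted p = 0.00361). Nrg4, a neuregulin secreted by brown fat, stood at 8.87 and 6.74 against 11.55 to 12.23 (-4.13 ± 0.58, adjusted p = 0.00855), and Nampt, which makes a nicotinamide adenine dinucleotide precursor, fell by 1.49.

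Thermogenic genes were set by the brown arrays in part, since the difference averages white and brown. Of 18 brown adipocyte genes 14 fell and 1 rose, with a median of -3.53, which was -1.64 against white alone and -5.70 against brown alone. Of the 18, 11 were below the range, so lower than the white arrays too. Ntrk3, a neurotrophin receptor, stood at 3.70 and 3.53 against 6.56 and 5.71 in white and 10.97 and 11.12 in brown (-4.97 ± 0.26, adjusted p = 0.00243). Otop1, a proton channel, stood at 6.80 and 3.05 against 9.59 and 7.92 in white and 12.13 and 12.20 in brown (-5.54 ± 1.09, adjusted p = 0.0191), and Cox8b, a cytochrome oxidase subunit of brown fat and muscle, fell by 4.24. Ucp1, the uncoupling protein, fell by 3.29 ± 0.85 but is not a member, since its marrow-derived values of 7.68 and 4.93 overlapped white (6.43 and 4.84) and both lay under brown (13.58 and 13.53). The gene that rose, Eva1a (1.59 ± 0.36), also lay inside the range and was named after its value was seen. The calls of Otop1 (without either brown array, adjusted p up to 0.0759), Cox8b (any 1 white or brown array, 0.112), Ucp1 (any 1 array but the GFP array, 0.12) and Eva1a (any 1 marrow-derived or brown array, 0.105) depended on single arrays. Without the LacZ array the differences of Otop1, Cox8b and Ucp1 were -3.66, -2.30 and -1.92. Without either brown array 9 genes of the list fell.

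Of 11 white adipocyte genes 5 fell and 2 rose, where 15.3% and 14.1% of all genes did. The median was -0.73, which was -1.68 against white alone and 0.86 against brown alone. Nnat, neuronatin, stood at 9.93 and 8.78 against 13.15 and 13.14 in white and 11.86 and 11.94 in brown (-3.17 ± 0.33, adjusted p = 0.00456). Tcf21, a transcription factor of visceral fat progenitors, rose by 3.39 ± 0.65, at 6.96 and 8.03 against 6.43 and 4.32 in white and 2.59 and 3.09 in brown, and Hoxc10 is described with its cluster. The call of Tcf21 was lost without the LacZ array or either brown array (adjusted p up to 0.073). The median of this list was -1.18 without white replicate 1, -0.39 without white replicate 2 and -0.39 without brown replicate 2.

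Genes of glucose handling fell in part. Of 13 glycolysis genes 8 fell and 1 rose, where 15.3% and 14.1% of all genes did, with a median of -1.03. Hk2, the insulin-responsive hexokinase, stood at 9.14 and 7.75 against 11.52 and 11.96 in white and 12.26 and 12.66 in brown (-3.65 ± 0.42, adjusted p = 0.00554). Pfkl, a phosphofructokinase (-2.15 ± 0.17), Ldhb, a lactate dehydrogenase subunit (-2.05 ± 0.24), and Tpi1, triose phosphate isomerase (-1.78 ± 0.14), fell too. Of the 2 other probe sets of Pfkl, 1 also lay below the range (-2.52). The remaining one lay inside it, with a positive difference (0.77). The gene that rose was Hk1, the general hexokinase, by 0.93 ± 0.23; it was named after its value was seen, lay inside the range, lost its call without either marrow-derived array, white replicate 2 or brown replicate 2 (adjusted p up to 0.121), and was -0.87 with the probe set of largest variance (adjusted p = 0.345). Of 19 insulin signalling genes 6 fell and 1 rose, beside the same shares of all genes, with a median of -0.23. Beside Grb14, Irs3, an insulin receptor substrate of rodents, stood at 7.68 and 7.02 against 9.50 to 10.70 (-2.63 ± 0.29, adjusted p = 0.00517), and Akt2, the kinase of insulin-stimulated glucose uptake, at 7.79 and 7.06 against 9.66 to 10.14 (-2.54 ± 0.26, adjusted p = 0.00453). Its relative Akt1, named after its value was seen, rose by 0.58, a call lost without any 1 of the 6 arrays (adjusted p up to 0.172).

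Of 29 glutathione and antioxidant genes 12 fell and 2 rose, where 15.3% and 14.1% of all genes did. The median was -0.44. Sod3, the extracellular superoxide dismutase, stood at 8.11 and 8.12 against 11.87 and 11.97 in white and 10.98 and 10.79 in brown (-3.29 ± 0.14, adjusted p = 0.00243). The glutathione transferase genes Gstz1 (-2.43 ± 0.34), Gsta4 (-2.31 ± 0.58) and Gsto1 (-2.15 ± 0.28) fell too. The 2 that rose, named after their values were seen, were Gstt2 (1.27 ± 0.17) and Nqo1, a quinone reductase (0.94 ± 0.23). The calls of Gsta4 (without white replicate 2, either brown array or the LacZ array, adjusted p up to 0.118) and Nqo1 (without any 1 array but the GFP array, 0.104) depended on single arrays, with differences of -1.34 and 0.60 without the LacZ array. The list had 7 genes that fell without the LacZ array, 7 without brown replicate 1 and 6 without brown replicate 2.

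**Figure D3:**
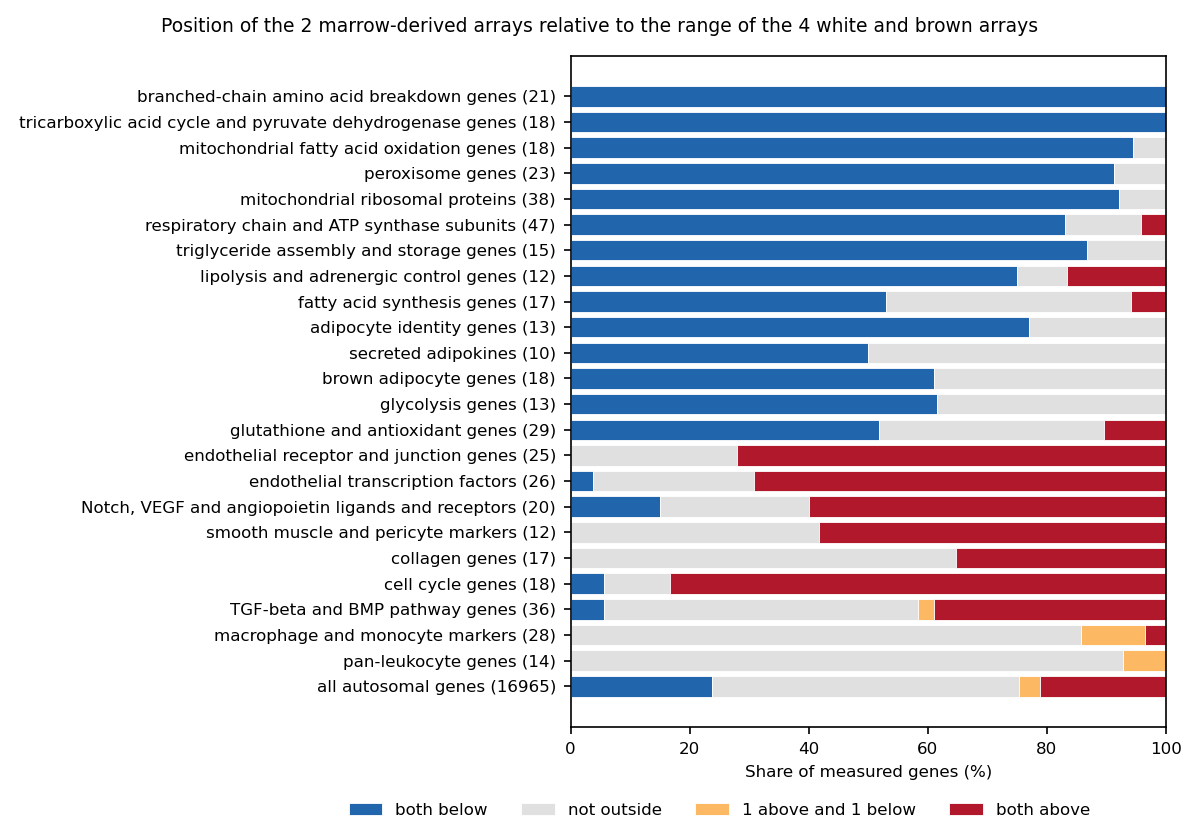
Share of the measured genes of 23 gene lists (number in brackets) whose 2 marrow-derived values both lay below, both lay above, lay on either side of, or were not outside the range of the 4 conventional arrays, with all 16965 genes in the last bar. Among all genes 23.8% lay below and 21.1% above, while 21 of 21 branched-chain genes lay below and 18 of 25 endothelial receptor and junction genes lay above.

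Hox genes encode homeodomain factors laid out in 4 clusters whose order follows the body axis, and fat depots carry different sets of them. In the Hoxa cluster on chromosome 6, 4 of 9 measured genes rose and 0 fell, where 14.1% and 15.3% of all genes did. Hoxa9 stood at 9.28 and 9.65 in marrow-derived arrays, 3.78 and 3.59 in white and 5.98 and 6.49 in brown (4.50 ± 0.22, adjusted p = 0.00243). Hoxa10 stood at 8.07 and 7.86, 3.70 and 4.02, and 3.27 and 3.60 in the same order, and Hoxa11 at 4.74 and 3.72 against at most 2.88. These 3 posterior genes are neighbours, and Hoxa2, at the other end, rose by 1.79 ± 0.32. In the Hoxd cluster on chromosome 2, 4 of 8 rose and 0 fell, which were Hoxd10, Hoxd9 (2.24 ± 0.16), Hoxd3 (1.84 ± 0.49) and Hoxd8 (1.08 ± 0.15), while Hoxd11, Hoxd12 and Hoxd13 stayed between 2.58 and 3.90 on every array.

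In the Hoxb cluster on chromosome 11, 2 of 9 rose, where 14.1% of all genes did. They were Hoxb9 and Hoxb3 (1.72 each). The Hoxc cluster on chromosome 15 went both ways. Of its 7 genes 3 fell and 1 rose, where 15.3% and 14.1% of all genes did. Hoxc10 stood at 7.79 and 6.90 against 3.18 and 3.62 in white and 3.28 and 2.90 in brown, a rise of 4.10 ± 0.31. Hoxc5 stood at 6.20 and 6.36 against 9.32 and 10.04 in white and 9.19 and 9.26 in brown (-3.17 ± 0.23, adjusted p = 0.00296), with Hoxc8 (-2.13 ± 0.18) and Hoxc4 (-1.89 ± 0.23) lower as well. Both directions thus occur within 1 cluster. The calls of Hoxa2 (without brown replicate 2, adjusted p = 0.0549), Hoxa11 (without white replicate 1 or either brown array, up to 0.0741) and Hoxd3 (without any 1 array but the GFP array, up to 0.132) depended on single arrays, and Hoxd3 was 1.01 without the LacZ array. In the Hoxb cluster 5 genes rose without the GFP array, and in the Hoxa cluster 2 rose without brown replicate 2.

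**Figure D4:**
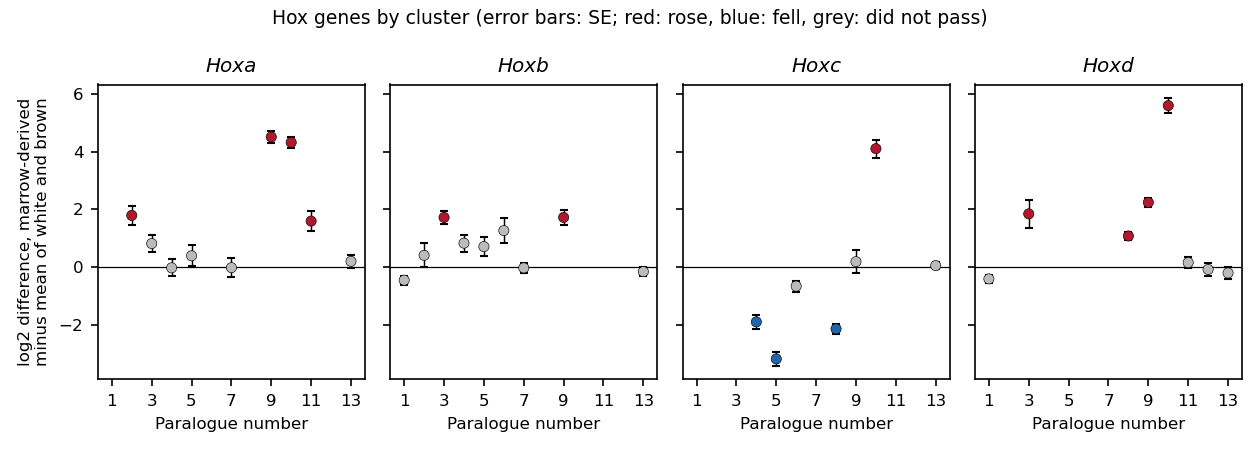
Log2 difference between marrow-derived adipocytes and the mean of white and brown (vertical axis, with SE) for the measured Hox genes of each cluster, ordered by paralogue number. Hoxa9, Hoxa10, Hoxc10 and Hoxd10 differ by 4.10 to 5.59, and Hoxc4, Hoxc5 and Hoxc8 are negative.

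Most endothelial genes were higher in marrow-derived adipocytes. Of 25 endothelial receptor and junction genes 23 rose and 0 fell, with a median of 2.22, against -0.03 for all genes tested, of which 14.1% rose. Cdh5, the cadherin of endothelial junctions, stood at 11.10 and 11.94 in marrow-derived, 7.46 and 6.56 in white and 10.32 and 9.67 in brown arrays (3.02 ± 0.39, adjusted p = 0.007). Vwf, the von Willebrand factor, stood at 9.69 and 10.24, 7.18 and 6.42, and 7.95 and 6.90 (2.85 ± 0.39, adjusted p = 0.00814). Tie1, a receptor of the angiopoietin system (2.77 ± 0.45), and Pecam1, the adhesion molecule CD31 (2.69 ± 0.43), rose as well. In these 4 genes the marrow-derived arrays lie highest and the white mean lowest, and the gap to the nearest brown array was 0.19 for Tie1 and 0.43 for Pecam1. The summed level of the 25 genes, on the log2 scale, was 16.40 and 16.81 in marrow-derived, 13.76 and 12.95 in white and 15.95 and 15.70 in brown arrays. The list's median was 3.51 against white alone and 0.88 against brown alone. Against brown alone Vwf passed limma's test (adjusted p = 0.0199), and Cdh5 (0.0698), Tie1 (0.257) and Pecam1 (0.165) did not. The list of receptors had 14 genes that rose without the LacZ array and 11 without brown replicate 2, and the call of Pecam1 was lost without brown replicate 2 (adjusted p = 0.0532). The part of endothelial RNA in the other differences was not tested.

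Of 26 endothelial transcription factors 17 rose and 0 fell, with a median of 1.81, which was 2.75 against white alone and 0.88 against brown alone. Sox17, a factor of arterial endothelium, stood at 11.41 and 12.14 against 7.92 and 7.29 in white and 10.72 and 10.20 in brown (2.74 ± 0.32, adjusted p = 0.0056). Erg, an ETS-family factor that maintains endothelial identity (2.71 ± 0.27), Sox18, of lymphatic and blood vessels (2.67 ± 0.36), and Foxf1 (4.70 ± 0.71) also rose. Against brown alone Erg and Foxf1 passed limma's test (adjusted p = 0.034 and 0.019), and Sox17 and Sox18 did not (0.060 and 0.149). The other probe set of Erg lay inside the range. It stood at 8.05 (GFP array) and 9.40 (LacZ array) against 8.14 and 8.20 in brown. Without the LacZ array or either brown array 9 of the 26 rose. Of 20 Notch, VEGF and angiopoietin genes 11 rose and 3 fell, with a median of 1.69, which was 2.81 against white alone and 0.69 against brown alone. Angpt2, an angiopoietin released by activated endothelium, stood at 9.95 and 10.92 against 5.93 to 7.39 (3.72 ± 0.44, adjusted p = 0.00587). Notch4, an endothelial Notch receptor (3.34 ± 0.26), Dll4, its ligand on tip cells (3.25 ± 0.50), and Pgf, placental growth factor (3.17 ± 0.40), rose as well.

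The 3 genes of this list that fell, named after their values were seen, are ligands. Vegfa, the main angiogenic growth factor, stood at 7.43 and 6.42 in marrow-derived, 9.77 and 10.07 in white and 10.10 and 10.15 in brown arrays (-3.09 ± 0.31, adjusted p = 0.0044). Vegfb stood at 7.72 and 6.85, 10.12 and 10.40, and 10.55 and 10.46 (-3.10 ± 0.28, adjusted p = 0.00382). Angpt1, the angiopoietin that activates the Tie2 receptor, stood at 7.11 and 7.09, 7.96 and 8.32, and 8.93 and 8.99 (-1.45 ± 0.16, adjusted p = 0.00518). All 3 were below both conventional types, while the other angiopoietin, Angpt2, was above both. Without brown replicate 2, 7 genes of the list rose.

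Many mural markers rose, while stromal and matrix genes differed from brown more than from white in their medians. Of 12 smooth muscle and pericyte markers 8 rose and 0 fell, with a median of 1.87. Myh11, the smooth muscle myosin, stood at 9.73 and 10.55 against 6.11 and 6.32 in white and 6.82 and 6.30 in brown (3.75 ± 0.29, adjusted p = 0.00299). Tagln, an actin-binding protein of smooth muscle, rose by 3.01 ± 0.32, Abcc9, a potassium channel subunit of pericytes, by 2.64 ± 0.44, and Notch3, the mural Notch receptor, by 2.48 ± 0.32. The summed level of the list, on the log2 scale, was 14.64 and 15.10 in marrow-derived arrays, 13.42 and 13.44 in white and 13.90 and 13.66 in brown. The list had 5 genes that rose without the LacZ array and 4 without brown replicate 2, where the call of Abcc9 was lost (adjusted p = 0.0568). Their part in other results was not tested.

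Of 15 fat progenitor and fibroblast markers 8 rose and 0 fell, with a median of 1.62, which was 0.30 against white alone and 2.17 against brown alone, and 5 lay above the range. Their summed level, on the log2 scale, was 14.94 and 14.71 in marrow-derived, 14.50 and 14.01 in white and 12.87 and 12.47 in brown arrays, and their part in other results was not tested. Thy1, the surface antigen CD90, stood at 8.34 and 9.13 against 5.80 and 5.16 in white and 5.09 and 4.98 in brown (3.48 ± 0.30, adjusted p = 0.00361). Postn, the matrix protein periostin (2.48 ± 0.41), and Cd34, shared by progenitors and endothelium (2.40 ± 0.42), rose as well. Of 17 collagen genes 9 rose and 0 fell, where 14.1% and 15.3% of all genes did. The median was 1.15, which was 0.11 against white alone and 1.45 against brown alone. Col6a3 stood at 10.79 and 11.01 against 9.68 and 9.91 in white and 7.88 and 7.73 in brown (2.10 ± 0.16, adjusted p = 0.00296). The fibrillar collagens Col1a2 (1.89 ± 0.33), with a gap of 0.02 to white, and Col3a1 (1.23 ± 0.15), and the associated Col14a1 (1.66 ± 0.44), rose by less than Col6a3. The fibroblast list had 5 genes that rose without the LacZ array and 4 without brown replicate 2, and 11 above the range without white replicate 1; the collagen list had 5 without brown replicate 2. The calls of Postn and Cd34 were lost without brown replicate 2 (adjusted p = 0.0549 and up to 0.0625), those of Cd34 and Col1a2 without the LacZ array (the latter at 0.0549), and that of Col14a1 without the GFP array, white replicate 2 or either brown array (up to 0.157).

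Of 36 genes of the TGF-beta and BMP pathways 12 rose and 2 fell, where 14.1% and 15.3% of all genes did. The median was 0.50. Id1, a target of BMP signalling, stood at 11.89 and 12.19 against 9.05 and 8.48 in white and 11.16 and 11.12 in brown (2.09 ± 0.21, adjusted p = 0.00446). The ligand genes Tgfb2 (1.90 ± 0.24) and Bmp5 (1.68 ± 0.45) rose, and the receptor gene Bmpr1a stood at 9.40 and 9.26 against 9.99 to 11.01 (-1.17 ± 0.13, adjusted p = 0.00553). The other that fell was the ligand gene Gdf5 (-1.05 ± 0.26), named after its value was seen. Genes that rose numbered 5 without the LacZ array, 6 without white replicate 2, 7 without brown replicate 1 and 4 without brown replicate 2. The calls of Bmp5 (without white replicate 2, either brown array or the LacZ array, adjusted p up to 0.163) and Gdf5 (any 1 marrow-derived or white array, 0.118) depended on single arrays. In the Wnt pathway 4 of 31 genes rose and 4 fell, shares no larger than the 14.1% and 15.3% of all genes, with a median of 0.02. The receptor gene Fzd6 (2.41 ± 0.31) and the secreted modulator Sfrp2 (3.04 ± 0.38) rose. Against brown alone Sfrp2 passed limma's test (adjusted p = 0.00501) and Fzd6 did not (0.17). The ligand gene Wnt5a stood at 5.62 and 4.12 against 7.87 to 9.22 (-3.75 ± 0.43, adjusted p = 0.00558), and Axin2, a target and inhibitor of the pathway, fell by 3.06, a call lost without brown replicate 2 (adjusted p = 0.0549), where 2 Wnt genes fell.

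Cell cycle genes lay above the range in 15 of 18 members, where 21.1% of all genes did. Of them 12 rose and 1 fell, where 14.1% and 15.3% of all genes did, with a median of 1.498. Mki67, the proliferation marker Ki-67, stood at 9.49 and 9.55 against 8.47 and 6.79 in white and 6.03 and 6.22 in brown (2.64 ± 0.47, adjusted p = 0.0142). Top2a, topoisomerase of dividing cells (2.53 ± 0.46), Bub1, a mitotic checkpoint kinase (2.41 ± 0.64), and Cdk1, the mitotic kinase (2.39 ± 0.53), rose with it. Against white alone Mki67 (adjusted p = 0.0559), Top2a (0.107), Bub1 (0.203) and Cdk1 (0.129) did not pass limma's test. Against brown alone they did (0.0149, 0.0121, 0.0339 and 0.0219). White replicate 1 was the nearest conventional array in each of these 4 genes. The gene that fell, named after its value was seen, was Ccne1, cyclin E1 (-0.67 ± 0.17). The count moved with single arrays, since 2 genes rose without the GFP array, 1 without the LacZ array, 1 without brown replicate 1 and 0 without brown replicate 2. Each of the 4 genes named lost its call without the LacZ array or either brown array, and Bub1 and Cdk1 also without the GFP array, with adjusted p up to 0.0599 for Mki67, 0.0626 for Top2a, 0.129 for Bub1 and 0.0846 for Cdk1. That of Ccne1 was lost without any 1 array but white replicate 1 (adjusted p up to 0.141).

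Of 16 hematopoietic progenitor genes 5 rose and 1 fell, where 14.1% and 15.3% of all genes did, with a median of 0.29. Kit, the stem cell factor receptor, stood at 7.98 and 9.65 against 5.34 and 4.99 in white and 7.25 and 7.35 in brown (2.58 ± 0.47, adjusted p = 0.0153). Against brown alone Kit did not pass limma's test (adjusted p = 0.111). Its other probe set lay inside the range, at 3.86 (GFP array) and 6.98 (LacZ array) against 4.15 and 4.66 in brown. Procr, the protein C receptor of stem cells and endothelium (2.44 ± 0.67), and Thy1 rose too, and Hlf, a transcription factor of stem cells and of the clock output, stood at 5.67 and 5.86 against 7.55 to 9.29 (-2.71 ± 0.15, adjusted p = 0.00243). The calls of Kit (without either brown array, adjusted p up to 0.0645) and Procr (without any 1 marrow-derived or brown array, 0.174) depended on single arrays, and 2 genes rose without brown replicate 1 and 1 without brown replicate 2. The list's median was -0.39 without the GFP array and 1.10 without the LacZ array.

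Of 28 macrophage and monocyte markers 1 rose and 1 fell, where 14.1% and 15.3% of all genes did. Mertk, a receptor for dying cells, stood at 10.21 and 10.10 against 9.66 and 9.51 in white and 8.70 and 8.97 in brown (0.95 ± 0.16, adjusted p = 0.0118), and Marco, a scavenger receptor named after its value was seen, fell by 0.83, a call lost without any 1 of the 6 arrays (adjusted p up to 0.146). The list's median of 0.33, which was -0.70 against white alone and 1.36 against brown alone, became -0.94 without the GFP array, 1.69 without the LacZ array, where 5 markers rose, 0.71 without white replicate 1, 0.56 without brown replicate 1 and 0.03 without white replicate 2. Of 14 pan-leukocyte genes and 10 neutrophil genes 0 passed limma's test in either direction, 1 in each list had an unadjusted p under 0.05, and the ordinary linear model called 0 of either. The largest difference among the neutrophil genes was that of Mmp9, a gelatinase of neutrophils, at 11.24 (GFP array) and 6.96 (LacZ array) (1.92 ± 1.18, adjusted p = 0.282; -0.22 without the GFP array). Of 12 T and NK cell markers 1 rose, Cd247, the zeta chain of the T cell receptor (2.46 ± 0.55), and of 10 B cell markers 1 rose, Fcer2a, the low-affinity IgE receptor (0.60 ± 0.13, at 4.39 and 4.35 in marrow-derived arrays). Among all genes 14.1% rose. The call of Cd247 was lost without the LacZ array, white replicate 2 or brown replicate 2. That of Fcer2a was lost without any 1 array, although its values lay close together within each group. They were 4.39 and 4.35 in marrow-derived, 3.52 and 3.54 in white and 4.01 and 4.02 in brown arrays. Without the LacZ array more T and NK cell, B cell and neutrophil genes rose, and without the GFP array some neutrophil genes fell.

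Of 8 erythroid and megakaryocyte markers 2 rose and 1 fell, where 14.1% and 15.3% of all genes did. Epor, the erythropoietin receptor, stood at 8.32 and 8.50 against 5.17 to 6.45 (2.47 ± 0.34, adjusted p = 0.00806). Ppbp, a platelet chemokine, rose by 1.46, and Car1, an erythroid carbonic anhydrase, fell by 2.00 with a gap of 0.01. The calls of Ppbp (without brown replicate 2, adjusted p = 0.0557) and Car1 (without the LacZ array or either brown array, up to 0.118) depended on single arrays, and 3 genes of this list rose without the GFP array and 4 without the LacZ array. Of 28 inflammatory mediators 4 rose and 1 fell, where 14.1% of all genes rose, with a median of 0.68, which was -0.02 against white alone and 1.15 against brown alone. Il6, the cytokine interleukin 6, stood at 8.61 and 9.46 against 7.27 and 5.39 in white and 4.61 and 4.93 in brown (3.48 ± 0.57, adjusted p = 0.0115). Nos2, the inducible nitric oxide synthase (1.86 ± 0.26), and Cxcl9, a chemokine induced by interferon gamma (1.53 ± 0.15), rose as well. The remaining calls, Cxcl12 (0.68 ± 0.16) and the lipocalin Lcn2 (-1.83 ± 0.50), lay inside the range, were named after their values were seen, and were lost without either marrow-derived or either brown array, and for Cxcl12 either white array (adjusted p up to 0.113 and 0.171). The call of Il6 was lost without brown replicate 2 (adjusted p = 0.0519), and 10 genes of the list rose without the LacZ array, with a median of 1.22, against 0.03 without the GFP array, and 2 rose without brown replicate 2.

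**Figure D5:**
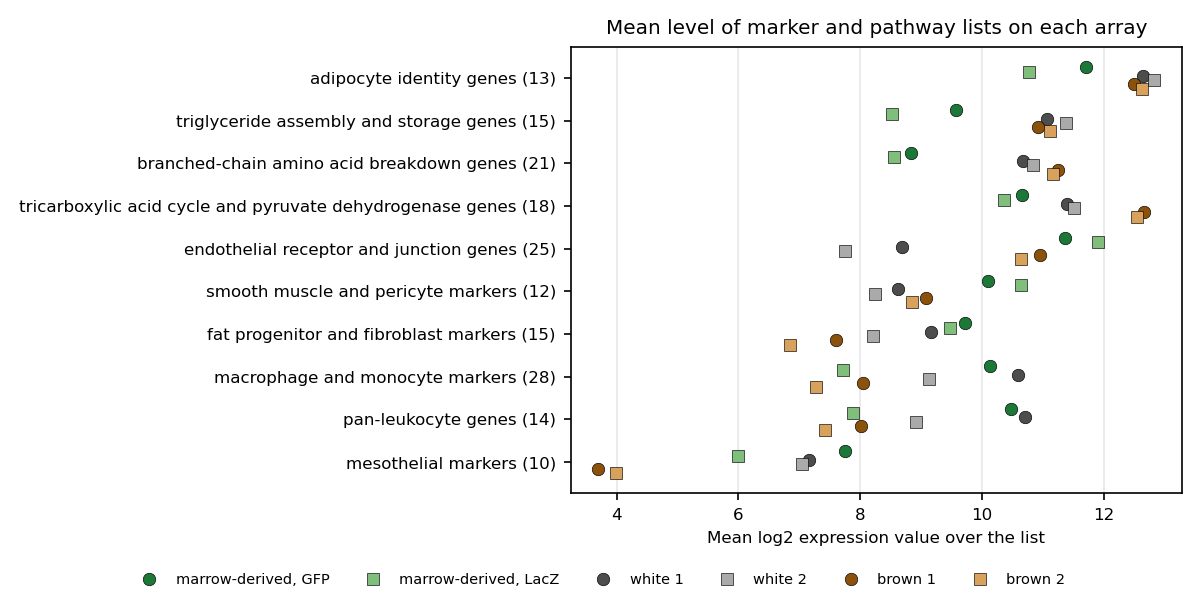
Mean log2 expression value of 10 gene lists on each of the 6 arrays, with the number of measured genes in brackets. The macrophage markers average 10.14 (GFP array) and 7.72 (LacZ array), while the endothelial genes average 11.36 and 11.91.

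Of 10 mesothelial markers 3 rose, where 14.1% of all genes did, and 0 lay above the range. The median of the list was -0.28 against white alone and 2.74 against brown alone, and it averaged 7.76 and 6.00 in marrow-derived, 7.16 and 7.04 in white and 3.70 and 4.00 in brown arrays. Its called genes were Upk3b, a uroplakin (2.72 ± 0.59), and, named after their values were seen, the keratin genes Krt19 (2.24 ± 0.50) and Krt18 (1.25 ± 0.32), all lost without white replicate 2 or either brown array (adjusted p up to 0.0816, 0.089 and 0.121), the keratins also without white replicate 1 and Krt18 without the GFP array. Without the GFP array the 3 differences were 1.70, 1.33 and 0.80, and 9 of the markers rose without the LacZ array, 2 without the GFP array, 1 without white replicate 1 and 0 without any other. Of 15 skeletal muscle markers 0 rose and 2 fell, Acta1, skeletal actin (-2.74 ± 0.75), and Myl1, a myosin light chain (-2.63 ± 0.27). Among all genes 14.1% rose and 15.3% fell, the shares to set beside this list and the next. Of 10 Schwann cell and neural markers 1 rose, Ngfr (0.85 ± 0.22), and 1 fell, S100b, at 5.11 and 4.10 against 7.73 and 7.91 in white and 11.23 and 10.72 in brown (-4.79 ± 0.33, adjusted p = 0.00283). Acta1 lost its call without any 1 marrow-derived or white array (adjusted p up to 0.155), and Ngfr without any 1 array but the GFP array (0.157).

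Of 21 heat shock and immediate early genes, which can respond to tissue digestion, 2 rose and 0 fell, with a median of 0.39. Among all genes 14.1% rose and 15.3% fell. Ier3, an early response gene, stood at 12.64 and 12.56 against 11.50 to 11.63 (1.04 ± 0.14, adjusted p = 0.0071), and the small chaperone gene Hspb1 rose by 0.97 with a gap of 0.03, a call lost without any 1 of the 6 arrays (adjusted p up to 0.164). The number that rose was 4 without the GFP array, 3 without white replicate 1 and 1 without each other array. Of 18 clock genes 1 rose and 6 fell, with a median of -0.12. Arntl, the clock activator BMAL1, stood at 9.45 and 9.87 against 8.04 to 8.82 (1.21 ± 0.28, adjusted p = 0.0277). Nr1d1, the repressor REV-ERB alpha that acts on Arntl, stood at 9.11 and 8.75 against 10.59 to 11.12 (-1.96 ± 0.23, adjusted p = 0.00553), and Per3, a period gene, fell by 1.60. Arntl lost its call without white replicate 1, either brown array or the LacZ array (adjusted p up to 0.11), Per3 without the GFP array (0.0638), and 3 clock genes fell without the GFP array. The time of day of tissue collection is not given in the sources used here.

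Of 29 listed proteasome subunits 0 rose and 5 fell, where 15.3% of all genes fell, with a median of -0.23. Of them 16 lay below the range, where 23.8% of all genes did. Psmb8 and Psmb9, subunits not on this list and named after their values were seen, rose and lay above the range. They and Cox4i2 are not part of the count of named genes below. Among the listed genes called, Psmb1 (-0.87 ± 0.16), Psmb7 (-0.73 ± 0.15), Psma1 (-0.70 ± 0.16) and Psmd14 (-0.60 ± 0.15) had the largest differences. Each lost its call without the LacZ array or brown replicate 2, with adjusted p up to 0.0584, 0.0735, 0.0945 and 0.138, and the number that fell was 1 without the GFP array, 0 without the LacZ array, 2 and 1 without white replicates 1 and 2, and 3 and 0 without brown replicates 1 and 2. Psma1 and Psmd14 lost theirs also without the GFP array or either white array, Psmb7 without the GFP array or white replicate 2, and Psmd14 without brown replicate 1. Of the 190 called genes named here or in the closing section, 122 were called with any single array left out.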

How the data were processed

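RNA of 6 samples in 3 groups was hybridised to 1 array each. The deposited values are on the log2 scale, 1 per probe set; per the submitters' processing notes, which list RMA and Partek without version or role, the software is known by name alone, and the log base was inferred from the range of the values (1.67 to 13.97). Every sample column matched a sample's title, so 0 columns were left aside. Of 43057 probe sets, 33565 carried 1 gene symbol, 857 several and 8635 none, and 33376 matched RefSeq (GRCm38.p6). Genes with several probe sets (8651) were represented by the one with the highest mean. Of 17720 genes, 589 X-linked, 8 Y-linked, 156 with no chromosome and 2 mitochondrial or unplaced ones were left out, leaving 16965.

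A model of the 3 group means was fitted with limma 3.58.1 in R 4.3.3, with empirical Bayes moderation (3 residual and 2.36 prior degrees of freedom) and Benjamini-Hochberg adjustment over all 16965 genes. An exact permutation test of 1 gene, 2 arrays against 4, cannot go below a two-sided p of 0.0667. The script was tested on simulated data. The members and the 44 gene lists were chosen with earlier results of these data known. Named were the 10 called genes with the largest gap in each direction, up to 4 called members outside the range per list by size of difference (or the largest difference where there were none), the 4 most widely split genes, the genes at the edge of the rule and a few fixed markers; other genes are said to be named after their values were seen. Alternatives were the choice of probe set, scaling, a filter on low values, keeping the sex chromosomes, the replicate number as a block, the grouping, the moderation, array weights and leaving out each array.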

Additional observations from a re-analysis of the deposited data

How the results depend on the processing

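The 6 arrays limit every result here, and brown replicate 2 mattered most for calls. With each array left out in turn, limma called between 2018 and 4340 genes (4977 with all), of which 820 to 2100 were higher (2386) and 1198 to 2240 lower (2591). Marrow-derived and conventional arrays taken as 2 groups gave 2027 calls (850 higher, 1177 lower), and an ordinary linear model without moderation gave 1457 (556 higher, 901 lower). With each array centred on its median, 2920 genes lay above the range and 4831 below it. After a second quantile normalization the numbers were 3743 and 3679, against 3583 and 4033 in the main setting. Which side held more genes thus depended on the scaling. Genes above the range numbered 3736 to 5605 and genes below it 4240 to 6107 with an array left out, which follows from asking fewer arrays to agree, and genes split by the range numbered 166 under the filter on low values; with 1 marrow-derived array no split can be defined.

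Signs turned without the GFP array for Adgre1 (-0.85, and 2.46 without the LacZ array), Cd68 (-0.99 and 1.56), Csf1r (-0.21 and 1.89), Mmp9 (-0.22 and 4.07), Ptprc (-1.22 and 2.03), the B cell list's median (-0.30 and 0.67) and the clock list's median (0.026 and -0.26), without white replicate 2 for Cd68 (-0.16) and Ptprc (-0.12), after a second quantile normalization for Fabp4 (0.036), and with the probe set of largest variance for Hk1 (-0.87) and Pon2 (0.23); the cause was not tested. With the replicate number as a block 4483 genes were called, 2118 higher and 2365 lower. The numbers were not taken to pair the samples, since deviations of same-numbered arrays correlated at 0.199 for marrow and white, -0.01 for marrow and brown and 0.278 for white and brown. Of the 190 called genes, 15 were not called with that block, 91 with 2 groups and 107 without moderation.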

Other observations

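Several runs of neighbouring genes lay on the same side of the range; they were chosen after their values were seen. On chromosome 7, 7 neighbouring genes of the tripartite motif family, which includes restriction factors against retroviruses, rose: Trim6 (3.02), Trim34a (1.19), Trim5 (0.92), Trim12a (1.43), Trim12c (1.07), Trim30a (1.85) and Trim30d (2.35, log2 differences by limma). The calls of Trim12c were lost without the LacZ array or brown replicate 2 (adjusted p up to 0.056), and those of Trim30a and Trim5 without any 1 marrow-derived or brown array (up to 0.0759 and 0.0894). Members of this family are near-identical in part, so the probe sets may not separate them.

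On chromosome 6, 4 genes of the GTPases of immunity-associated proteins rose: Gimap8 (2.29), Gimap9 (2.20), Gimap4 (2.84) and Gimap6 (1.85). The call of Gimap8 was lost without brown replicate 2 (adjusted p = 0.0566) and that of Gimap6 without the LacZ array or either brown array (up to 0.0759). On the same chromosome all 3 paraoxonase genes, whose enzymes hydrolyse lactones and oxidised lipids, fell: Pon1 (-4.17), Pon3 (-3.08) and Pon2 (-0.65). The call of Pon1 was lost without either brown array (adjusted p up to 0.0755), with a difference of -2.70 without the LacZ array, and that of Pon3 without brown replicate 2 (0.0622). Pon2 lost its call without several arrays (up to 0.0801) and stood at 0.23 with the probe set of largest variance.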
